A study of Mus musculus with 4 samples.

Results

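The cytosolic nucleic acid sensors were followed here as 10 genes chosen by name, out of 55359 genes counted: *Ddx58*, *Ifih1*, *Dhx58*, *Mavs*, *Cgas*, *Tmem173*, *Zbp1*, *Tbk1*, *Ikbke* and *Trex1*. Of these, 9 had enough counts to be tested, among 14637 genes tested in all. The study asked how re-expression of the transcription factor IRF4 changes the transcriptome of murine precursor B cell leukemia cells (pB-ALL). Both groups were T8 cells, 1 leukemia line of genotype Irf4-/-, transduced with an empty GFP-coding retrovirus (EV-RV, 2 libraries) or with a retrovirus coding for IRF4 (IRF4-RV, 2 libraries), and RNA was taken after 24 h. The study describes the compared cells as those still viable at 24 h. The 2 libraries of a group are labelled as biological replicates. The titles and the tissue label name T8, whereas the protocol labels name T11, and the libraries are described as T8 here. A further limit of the model is that the leukemia cells derive from a single line and that IRF4 came from a retrovirus. The share of transduced cells in each RNA sample is not given in the sources used here.

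Cytosolic sensors detect RNA or DNA in a compartment where little of it is normally found. RIG-I (gene *Ddx58*) and MDA5 (*Ifih1*) bind double-stranded RNA and pass the signal to the mitochondrial adaptor MAVS, while cGAS binds DNA and makes the messenger cGAMP, which activates STING (*Tmem173*). Both routes end at the kinases TBK1 and IKKε (*Ikbke*), which activate the transcription factors IRF3 and IRF7 and thereby type I interferon genes. Several sensors are themselves interferon-stimulated genes, so the pathway can raise its own components.

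Depth ranged from 31230223 to 37817752 counts per library, at which 3 counts correspond to 0.0824 to 0.0952 CPM (counts scaled to a common library size with TMM factors, which limit the influence of a few abundant genes). *Irf4* itself stood at 242 and 241 CPM after EV-RV and at 2822 and 2491 CPM after IRF4-RV. The EV-RV libraries thus held 8070 and 7600 *Irf4* counts although the cells are labelled Irf4-/-, and counts per gene do not show whether these reads lie in the deleted part. Nor do they separate vector from endogenous transcripts after IRF4-RV. The 8 B progenitor markers were all detected, at summed levels of 3476 and 3644 CPM after EV-RV and 2451 and 2449 CPM after IRF4-RV, so the labelled cell type was seen in every library. Markers of T and NK cells, macrophages, plasmacytoid dendritic cells and granulocytes each summed to between 0.0886 and 1.79 CPM per library, and *Siglech*, a defining marker of plasmacytoid dendritic cells, was at 0 in all 4. The 7 stromal markers summed to 50.6 and 95.8 CPM after EV-RV and to 49.96 and 236.0 CPM after IRF4-RV, so IRF4-RV replicate 2 stood apart. None of these 7 was called, and their part in the results was not tested. The called sensor genes are therefore also given with single libraries left out or for the replicate 1 libraries alone, whose stromal sums were nearly equal. For the other named genes that were called, a left-out library is mentioned where it ended the call or moved the value by over 1.5 times. The plot of marker sums shows this for each library. In bulk RNA of this kind, a change in the number of expressing cells cannot be told apart from a change of RNA per cell.

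**Figure D1:**
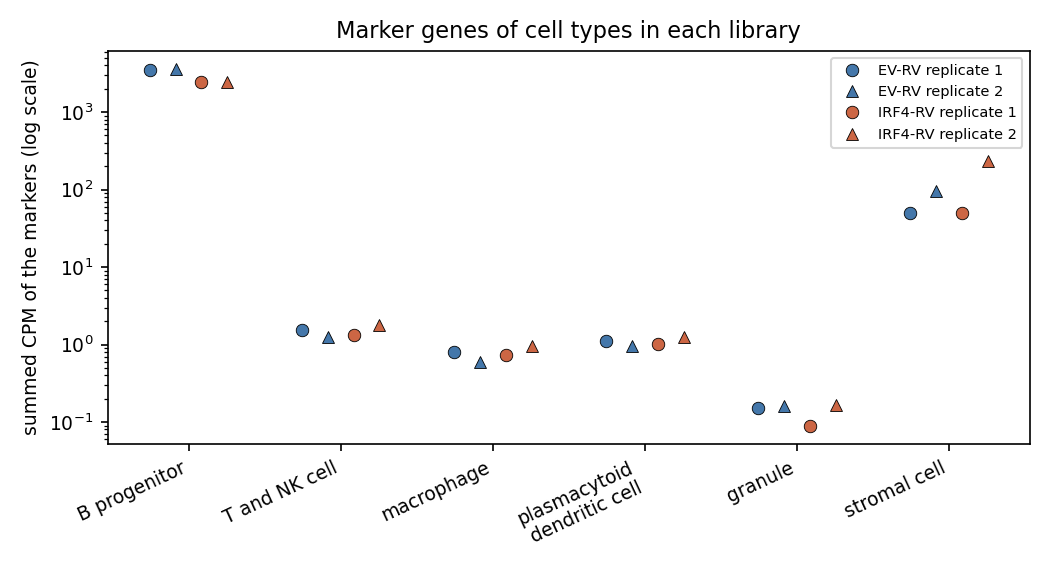
Summed CPM (log axis) of 6 sets of cell type markers, with 1 point per library, EV-RV and IRF4-RV side by side. B progenitor markers lie between 2449 and 3644 CPM, while the stromal sum is 236.0 CPM in IRF4-RV replicate 2 against 49.96 to 95.8 CPM in the other 3.

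Of the 9 sensor genes tested, 6 were higher after IRF4-RV, none was lower and 3 were not called (edgeR quasi-likelihood test, adjusted p under 0.1). Among all genes tested, 16.0% were called higher and 13.7% lower. Of the genes called, 53.8% were thus higher, a share that was 37.8% with scaling by library size only. The fitted change was above 0 for 9 of 9 and for 7434 of the 14637 genes tested. With scaling by library size only, *Tbk1* fell below 0. The median log2 fold change of the 9 was 0.50, against 0.01 over all genes tested. A log2 fold change above 1 was reached by 4 of 9 (*Zbp1*, *Dhx58*, *Ddx58* and *Ifih1*), whereas 4.50% of all genes tested were called higher by that much. All 9 had at least 17 counts in each EV-RV library, so none passed the filter on low counts only through IRF4-RV. DESeq2 gave 6 members higher as well.

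**Figure D2:**
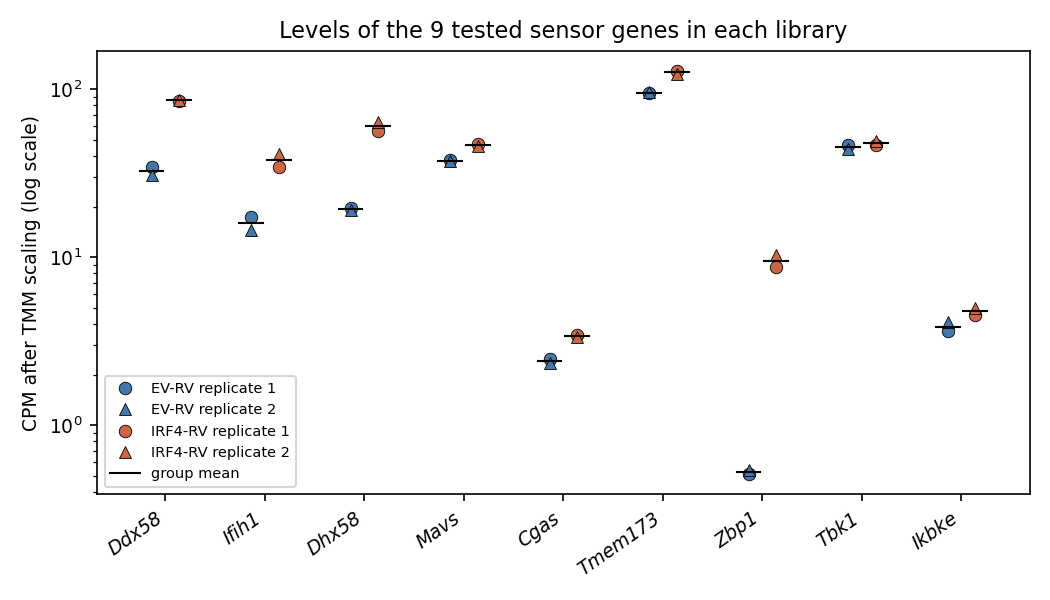
CPM after TMM scaling (log axis) of the 9 sensor genes with counts, with 1 point per library. *Zbp1* is the gene with the widest gap, and the groups overlap for *Tbk1*. The groups of *Cgas* and *Ikbke* are separate, but neither gene was called.

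The RIG-I-like receptors share a helicase core and recognise RNA. *Ddx58* (chr4:40203773-40239828, minus strand, GENCODE M21 on GRCm38, as for all gene positions here) encodes RIG-I, the receptor for short double-stranded RNA with a 5′ triphosphate. Its level was 34.5 and 30.6 CPM after EV-RV and 85.4 and 85.8 CPM after IRF4-RV. The IRF4-RV libraries were close to each other and well above both EV-RV libraries. The log2 fold change was 1.40 (2.63-fold, SE 0.0902, 95% interval 1.19 to 1.61, edgeR adjusted p 4.12e-05). *Ifih1* (chr2:62595798-62646255, minus strand) encodes MDA5, the receptor for long double-stranded RNA, and stood at 17.3 and 14.6 CPM after EV-RV and at 34.3 and 40.9 CPM after IRF4-RV. Both groups were separate, with more spread within each than for *Ddx58*. Its log2 fold change was 1.24 (2.36-fold, SE 0.128, 95% interval 0.94 to 1.53, edgeR adjusted p 0.000451). *Dhx58* (chr11:100694884-100704271, minus strand) encodes LGP2, which lacks the signalling domains of the other two and modulates them. It was the receptor of this family with the largest change, from 19.5 and 19.1 CPM after EV-RV to 56.6 and 63.4 CPM after IRF4-RV. The log2 fold change was 1.63 (3.11-fold, SE 0.0968, 95% interval 1.41 to 1.86, edgeR adjusted p 2.93e-05). The differences between the 3 receptors in the size of their change were not tested. *Dhx58* shares 141 exonic bases with an antisense transcript, *Dhx58os*, and whether counting used the strand is not given in the sources used here. Leaving out any one library gave a log2 fold change of 1.31 to 1.48 for *Ddx58*, 1.11 to 1.36 for *Ifih1* and 1.56 to 1.69 for *Dhx58*, and all 3 remained called. With the replicate 1 libraries alone the log2 ratio was 1.31 for *Ddx58*, 0.99 for *Ifih1* and 1.53 for *Dhx58*, each still positive.

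Promoter windows from RefSeq (build GRCm38.p6) were available for 7 of the 10 genes and run from 250 bases before to 50 bases after the transcript start. IRF proteins bind tandem GAAA repeats, whose shortened core was searched on both strands as AAANNGAAA. The letters leave out the first G and fix the spacing. A match therefore need not hold a full tandem repeat, and repeats with another spacing stay in lower case. This core was present in 10.6% of 32851 promoter windows of the genome. The windows of *Ddx58* and *Ifih1* are shown because both genes changed more than 2-fold and each held 1 match, given in capitals. Those of *Ikbke* and *Tbk1* are shown for contrast, since neither gene was called, although the *Ikbke* window also held a match. All 4 genes lie on the minus strand, and each window is written 5′ to 3′ along its gene.
Ddx58 (chr4:40239776-40240075): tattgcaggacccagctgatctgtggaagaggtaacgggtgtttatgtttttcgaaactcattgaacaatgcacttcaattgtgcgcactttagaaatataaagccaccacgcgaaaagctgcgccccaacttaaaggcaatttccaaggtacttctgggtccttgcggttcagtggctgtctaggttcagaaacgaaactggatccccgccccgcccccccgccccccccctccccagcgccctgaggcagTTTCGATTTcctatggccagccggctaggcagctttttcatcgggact
Ifih1 (chr2:62646206-62646505): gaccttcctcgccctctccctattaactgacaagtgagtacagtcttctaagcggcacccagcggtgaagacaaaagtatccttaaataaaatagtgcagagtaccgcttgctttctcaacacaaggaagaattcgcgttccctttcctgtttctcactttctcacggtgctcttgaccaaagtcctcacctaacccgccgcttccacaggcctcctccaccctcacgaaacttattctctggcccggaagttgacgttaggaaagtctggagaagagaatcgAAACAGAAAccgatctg
Ikbke (chr1:131279514-131279813): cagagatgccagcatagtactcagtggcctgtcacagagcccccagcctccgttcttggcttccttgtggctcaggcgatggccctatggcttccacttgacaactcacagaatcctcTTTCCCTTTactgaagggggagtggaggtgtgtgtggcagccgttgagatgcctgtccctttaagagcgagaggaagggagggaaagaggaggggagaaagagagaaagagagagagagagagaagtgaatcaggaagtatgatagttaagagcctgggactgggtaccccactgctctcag
Tbk1 (chr10:121586745-121587044): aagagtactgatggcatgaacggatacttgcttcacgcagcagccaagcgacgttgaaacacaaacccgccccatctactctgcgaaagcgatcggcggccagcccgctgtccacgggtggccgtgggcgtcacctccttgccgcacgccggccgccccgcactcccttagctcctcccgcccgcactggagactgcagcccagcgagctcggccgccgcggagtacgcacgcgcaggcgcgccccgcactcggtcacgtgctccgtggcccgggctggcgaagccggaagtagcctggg
Counted from the start base as 0, the match lay at 2 to 10 in *Ddx58* and at 33 to 41 in *Ifih1*, thus within the transcribed part of both windows. In *Ddx58* and *Ikbke* it is read on the opposite strand, and in *Ikbke* it lay upstream, at -132 to -124. The windows of *Mavs*, *Cgas*, *Tbk1* and *Trex1* held no match to this core. The ETS-IRF composite core GGAANNGAA (8.24% of all windows) and the GAS element TTCNNNGAA (8.30%) were not found in the window of any of the 7. The letters of the tandem and composite cores can overlap, and 1.22% of all windows held both. Over all genes tested, the tandem core was present in 23.8% of the 450 genes with a window that were called higher with a log2 fold change over 1. It was present in 8.94% of 6039 genes that were not called and in 8.33% of 192 called lower with a log2 fold change under -1. A match in these letters describes the window and does not show binding.

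*Mavs* (chr2:131234063-131248025, plus strand) encodes the mitochondrial adaptor that RIG-I and MDA5 share. It was counted at 37.8 and 37.3 CPM after EV-RV and at 47.2 and 45.7 CPM after IRF4-RV, so the groups were separate by a small margin. The log2 fold change was 0.31 (1.24-fold, SE 0.0833, 95% interval 0.11 to 0.50, edgeR adjusted p 0.0338). This call rested on both IRF4-RV libraries, because the adjusted p was 0.225 without IRF4-RV replicate 1 and 0.108 without IRF4-RV replicate 2. With scaling by library size only, *Mavs* was also not called (log2 fold change 0.22, edgeR adjusted p 0.11).

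In the DNA-sensing arm, *Tmem173* was higher, *Cgas* was not called and *Trex1* could not be measured. *Cgas* (chr9:78430526-78443237, minus strand) encodes the DNA-binding synthase of cGAMP and was among the least abundant sensors, with 82 and 74 counts (2.46 and 2.35 CPM) after EV-RV and 117 and 121 counts (3.45 and 3.32 CPM) after IRF4-RV. The groups did not overlap, but *Cgas* was not called (log2 fold change 0.50, SE 0.201, 95% interval 0.03 to 0.96, edgeR p 0.0403, adjusted p 0.125). It shares 201 exonic bases with an antisense gene model, *Gm8093*. *Tmem173* encodes STING, the receptor of cGAMP at the endoplasmic reticulum, and stood at 94.6 and 95.7 CPM after EV-RV and at 128 and 123 CPM after IRF4-RV. Both IRF4-RV libraries were higher, with a log2 fold change of 0.40 (1.32-fold, SE 0.0736, 95% interval 0.23 to 0.57, edgeR adjusted p 0.00679). The change of *Tmem173* was positive without any one library, at 0.35 to 0.44 on the log2 scale, and remained called.

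*Trex1* encodes the exonuclease that degrades cytosolic DNA and thereby limits cGAS activity. It was listed with 0 counts in all 4 libraries and could not be tested. All 1147 of its exonic bases (chr9:109057933-109059734, minus strand) lie within exons of *Atrip* on the same strand in GENCODE M21. Reads from both genes therefore cannot be told apart by position, and the 0 is not a level of *Trex1*. *Atrip* itself had 689 and 655 counts after EV-RV and 608 and 716 after IRF4-RV. Scaled to CPM these were 20.7 and 20.8 against 18.0 and 19.7, and *Atrip* was not called (log2 fold change -0.14, SE 0.0991, edgeR adjusted p 0.371).

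*Zbp1* (chr2:173206612-173218923, minus strand) encodes a sensor of Z-form nucleic acids that couples to necroptosis and apoptosis through RIPK3 and RIPK1. It was the sensor with the largest change, from 17 counts in each EV-RV library (0.510 and 0.539 CPM) to 295 and 374 counts after IRF4-RV (8.71 and 10.3 CPM). The lowest IRF4-RV library was thus far above both EV-RV libraries. The log2 fold change was 4.17 (18.0-fold, SE 0.210, 95% interval 3.68 to 4.66, edgeR adjusted p 1.45e-05). It ranged from 4.05 to 4.26 when any one library was left out, and the replicate 1 libraries alone gave 4.10. Of all genes tested, 99.6% had a lower log2 fold change than *Zbp1*. For the 3 RIG-I-like receptors this share was 96.0 to 97.6%.

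Of the 4 death partners of ZBP1 listed and tested, 2 were higher and 2 were not called (median log2 fold change 0.33). *Mlkl*, the pore-forming executor of necroptosis, had 304 and 228 counts after EV-RV and 555 and 733 after IRF4-RV, with a log2 fold change of 1.16 (SE 0.155, edgeR adjusted p 0.00159). *Casp8*, the initiator caspase that restrains necroptosis, stood at 72.7 and 78.9 CPM after EV-RV and at 101 and 105 CPM after IRF4-RV (log2 fold change 0.44, SE 0.0802, edgeR adjusted p 0.00653). Neither kinase was called, with a log2 fold change of 0.21 for *Ripk3* (95% interval -0.004 to 0.43, edgeR adjusted p 0.152) and of 0.01 for *Ripk1* (95% interval -0.22 to 0.24, edgeR adjusted p 0.955).

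The kinases downstream of both arms did not pass the test. *Tbk1* (chr10:121546455-121586787, minus strand) encodes the broadly expressed kinase that phosphorylates IRF3. It was at 46.8 and 44.1 CPM after EV-RV and at 46.7 and 49.2 CPM after IRF4-RV, so the groups overlapped. Its log2 fold change was 0.08 (SE 0.0857, 95% interval -0.12 to 0.28, edgeR adjusted p 0.570) and changed sign to -0.01 with scaling by library size only. *Ikbke* (chr1:131254343-131279606, minus strand) encodes the related and often inducible kinase IKKε. It had 121 and 129 counts (3.63 and 4.09 CPM) after EV-RV and 154 and 180 counts (4.55 and 4.94 CPM) after IRF4-RV, and the groups did not overlap. The log2 fold change was 0.30 (SE 0.173, 95% interval -0.10 to 0.70, edgeR adjusted p 0.267). *Ikbke* overlaps the antisense models *Gm28913* by 65 and *Gm28914* by 159 exonic bases.

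**Figure D3:**
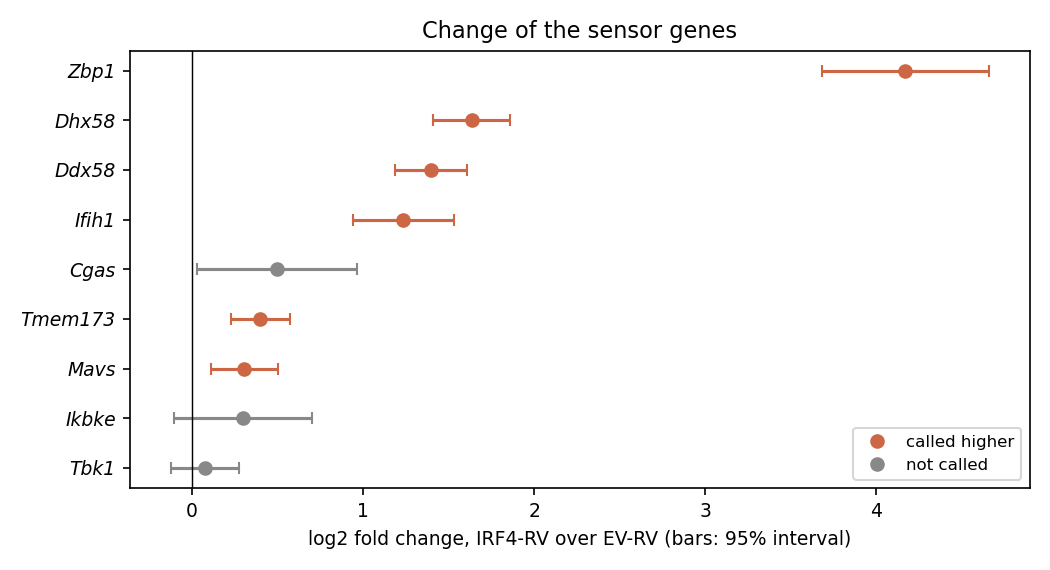
Log2 fold change (IRF4-RV over EV-RV) of the 9 tested sensor genes with 95% intervals from edgeR, called genes and genes not called marked apart. *Zbp1* stands at 4.17, the 3 RIG-I-like receptors at 1.24 to 1.63 and the other 5 between 0.08 and 0.50, where the intervals of *Tbk1* and *Ikbke* include 0.

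Levels were compared between genes as CPM per kilobase of exon. With EV-RV, *Tmem173* was highest at 34.7 ± 0.275 (SD, n = 2). *Tbk1* (11.6 ± 0.477) and *Mavs* (11.2 ± 0.112) followed and overlapped each other. Below them came *Dhx58* (5.90 ± 0.0969), *Ddx58* (4.62 ± 0.387), *Ifih1* (1.95 ± 0.234), *Cgas* (0.582 ± 0.0190), *Ikbke* (0.428 ± 0.0364) and *Zbp1* (0.149 ± 0.00594), with no overlap between neighbours. With IRF4-RV, *Tmem173* remained highest at 45.8 ± 1.35 CPM per kilobase. *Dhx58* (18.3 ± 1.47) stood next, above *Mavs* (13.9 ± 0.300), *Tbk1* (12.3 ± 0.454) and *Ddx58* (12.1 ± 0.0385), of which the last pair overlapped. *Ifih1* was at 4.60 ± 0.571 and *Zbp1* at 2.69 ± 0.313, the latter now above *Cgas* (0.821 ± 0.0225) and *Ikbke* (0.526 ± 0.0311). Several of these orders depended on the length used. Per kilobase of the longest transcript, *Ddx58* (8.40) stood above *Dhx58* (8.01) and *Ikbke* (0.659) above *Cgas* (0.593) after EV-RV. On the same scale, *Ddx58* (22.1) and *Tbk1* (15.9) stood above *Mavs* (15.2) after IRF4-RV.

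Genes that work with the sensors were taken as 9 lists with 99 genes, of which 73 were tested. Of these 73, 29 were higher, 6 were lower and 38 were not called. Over all genes tested, 16.0% were higher and 13.7% lower, the shares to set beside each list below. Of the 73, 4 passed the filter on low counts only through IRF4-RV, namely *Ifng*, *Rsad2*, *Ifit1* and *Ifit3*, all among the 29 higher. Without IRF4-RV replicate 2, 25 were higher and 3 were lower. Among 11 tested cofactors and regulators of the RNA sensors, 4 were higher and 2 lower (median log2 fold change 0.19). *Trim25*, a ubiquitin ligase that acts on RIG-I, rose from 127 and 117 CPM to 299 and 278 CPM (log2 fold change 1.24, SE 0.0805, edgeR adjusted p 4.23e-05). *Zc3hav1*, the antiviral RNA-binding protein ZAP, rose by 0.54 on the log2 scale (SE 0.0918). *Rnf135*, a further ubiquitin ligase of RIG-I, was called at 0.35, a call lost without EV-RV replicate 1, EV-RV replicate 2 or IRF4-RV replicate 2 and with DESeq2 (adjusted p 0.23). *Trim65*, a ubiquitin ligase that acts on MDA5, fell by 0.59 on the log2 scale (SE 0.0930), from 37.1 and 36.0 CPM to 25.3 and 23.2 CPM. *Zcchc3*, a co-sensor, was called at -0.54, which was lost without EV-RV replicate 1, EV-RV replicate 2 or IRF4-RV replicate 2 and with DESeq2 (adjusted p 0.182).

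Among 15 tested cofactors and regulators of the DNA sensors, 4 were higher and 1 was lower (median log2 fold change 0.09). *Trim56*, a ubiquitin ligase that acts on cGAS and STING, was called at a log2 fold change of 0.71 (SE 0.181, edgeR adjusted p 0.0266). It stood at 33.2 and 22.2 CPM after EV-RV and at 49.5 and 41.4 CPM after IRF4-RV, and its change was 0.45 without EV-RV replicate 2 and 1.02 without EV-RV replicate 1, called in both cases. *Stim1*, which retains STING at the endoplasmic reticulum, was called at 0.47 (SE 0.0756, edgeR adjusted p 0.00373). *Ifi204*, a DNA sensor of the AIM2-like family, had 22 and 19 counts after EV-RV and 33 and 148 after IRF4-RV. It was therefore high in IRF4-RV replicate 2 alone, and its log2 fold change of 2.00 (edgeR adjusted p 0.0558) became 0.63 (adjusted p 0.535) without that library. The call was also lost without either EV-RV library. *G3bp1*, a stress granule protein that promotes cGAS activation, was called at -0.24, a call lost without EV-RV replicate 2 or either IRF4-RV library.

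Enzymes that dispose of or edit nucleic acids counted 4 higher and 1 lower among 10 tested (median log2 fold change 0.06). *Pld4*, an endolysosomal exonuclease, had 48 and 45 counts after EV-RV and 640 and 692 after IRF4-RV. Its log2 fold change was 3.72 (13.2-fold, SE 0.137, edgeR adjusted p 2.82e-06). *Adar*, which edits adenosine in double-stranded RNA and so limits MDA5, stood at 66.3 and 61.0 CPM after EV-RV and at 154 and 150 CPM after IRF4-RV (log2 fold change 1.26, SE 0.0797, edgeR adjusted p 3.81e-05). *Samhd1*, a dNTP hydrolase, was at 59.9 and 59.6 CPM against 129 and 129 CPM (log2 fold change 1.11, SE 0.0737, edgeR adjusted p 4.71e-05). For all 3, every IRF4-RV library was above both EV-RV libraries. That also held for *Cgas* and *Ikbke*, genes that were not called, so separate groups alone were not read as a change. *Dnase2a*, the lysosomal DNase, fell by 0.48 on the log2 scale (SE 0.0957).

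The adaptor and kinase complex around TBK1 was tested for 16 genes, of which 2 were higher and 2 lower (median log2 fold change 0.01). Both shares were near those over all genes tested. *Tank*, a TBK1-binding scaffold, was called at 0.45 and *Tradd*, an adaptor of the MAVS complex, at 0.37. *Tbkbp1*, another TBK1-binding scaffold, was called at -0.51, a call lost without EV-RV replicate 1 (-0.33) and with DESeq2 (adjusted p 0.135). *Ddx3x*, a helicase reported to bind this complex, was called at -0.25, which was lost without EV-RV replicate 1 or IRF4-RV replicate 2.

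Of 5 transcription factors listed as activated downstream of the sensors, 3 were higher (median log2 fold change 0.24). *Irf7*, itself interferon-inducible, had 273 and 230 counts after EV-RV and 915 and 1168 after IRF4-RV (log2 fold change 1.93, SE 0.127, edgeR adjusted p 4.53e-05). *Irf3*, the constitutive factor, was at 54.3 and 58.5 CPM after EV-RV and at 50.2 and 55.2 CPM after IRF4-RV, so its groups overlapped (log2 fold change -0.10, 95% interval -0.31 to 0.11, edgeR adjusted p 0.490). Leaving out any one library moved the *Irf3* value between -0.16 and -0.04. *Irf5* (0.27) and *Rela* (0.24) were called, but *Irf5* lost the call without any one library, and *Rela* without EV-RV replicate 1 or either IRF4-RV library. Neither was called with scaling by library size only.

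Interferon receptor signalling counted 5 higher and none lower of 7 tested, with a median log2 fold change of 1.02. *Stat2*, a signal transducer of the type I interferon receptor, was at 10.6 and 9.32 CPM after EV-RV and at 38.9 and 34.7 CPM after IRF4-RV (log2 fold change 1.88, SE 0.114, edgeR adjusted p 3.2e-05). *Irf9*, its DNA-binding partner, was called at 1.72 (SE 0.0948). Both remained called without IRF4-RV replicate 2.

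Except for *Ifng*, transcripts of the listed interferon genes were at or near the limit of detection. Of 21 interferon genes listed, only *Ifng* was tested, and it passed the filter on low counts only through IRF4-RV. *Ifnb1*, the first type I interferon made after sensing, had 0 and 3 counts after EV-RV and 3 and 0 after IRF4-RV. At this depth a difference in *Ifnb1* was not detectable. *Ifng*, the type II interferon, had 0 counts in both EV-RV libraries and 29 and 35 after IRF4-RV, hence at least 9.82-fold higher against a floor of 3 counts per library.

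Of 6 output genes, only *Isg15* reached the minimum of the filter on low counts in the EV-RV libraries. *Rsad2*, *Ifit1* and *Ifit3* were tested only because their counts were high after IRF4-RV, so no count or median is given over this list. *Isg15*, a ubiquitin-like modifier, had 53 and 75 counts after EV-RV and 1923 and 2300 after IRF4-RV (log2 fold change 4.92, SE 0.169, edgeR adjusted p 2.35e-06). *Rsad2*, the antiviral enzyme viperin, had 7 and 5 counts after EV-RV and 870 and 862 after IRF4-RV. These were 0.210 and 0.159 CPM against 25.7 and 23.7 CPM. *Ifit1*, which binds foreign 5′ ends of RNA, had 3 and 0 counts after EV-RV and 92 and 221 after IRF4-RV. It was at least 47.5-fold higher against the floor, or at least 29.4-fold with IRF4-RV replicate 1 alone. The chemokine genes *Cxcl10* (0 and 0 counts after EV-RV, 7 and 12 after IRF4-RV) and *Ccl5* (0 and 1 against 0 and 1) were too low to be tested.

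**Figure D4:**
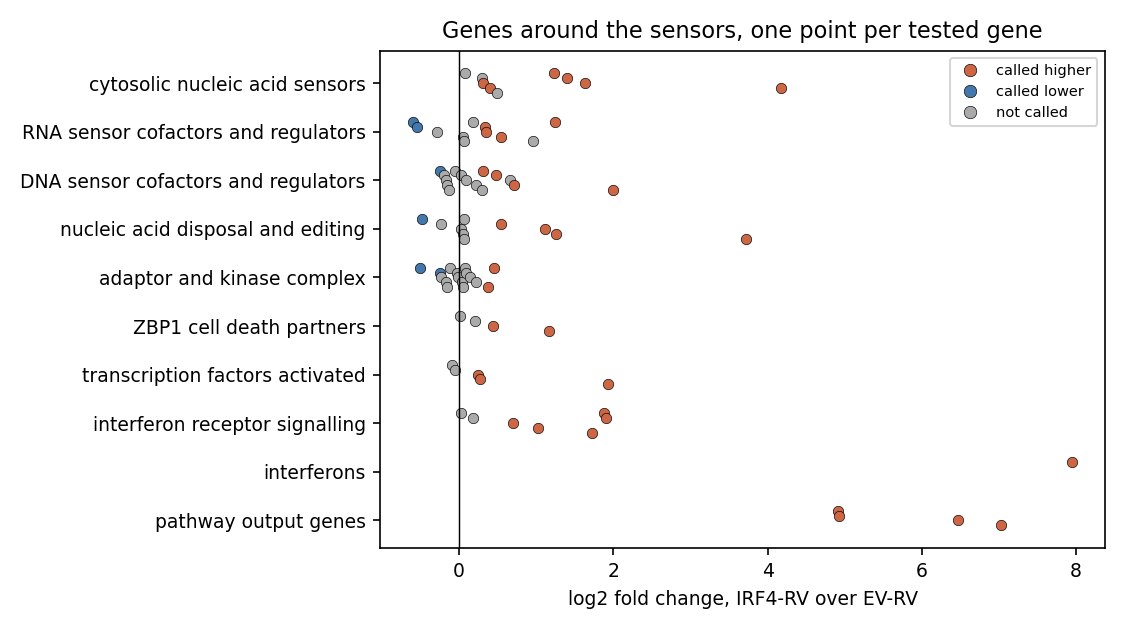
Log2 fold change (IRF4-RV over EV-RV) of every tested gene in the sensor group and in 9 lists of genes that work with it, with 1 point per gene. Points of the adaptor and kinase complex lie on both sides of 0 and those of interferon receptor signalling are all above 0. The fitted points of *Ifng* and *Ifit1*, which have EV-RV libraries at 0, depend on the small count the fit adds and are not sizes of change.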

How the data were processed

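RNA sequencing libraries of T8 cells (2 EV-RV, 2 IRF4-RV) were analyzed. According to the submitters' processing notes, reads were checked with FastQC 0.11.2, aligned to GRCm38 with STAR 2.4.0j and counted with featureCounts. The authors deposited raw counts per Ensembl gene, whole numbers without normalization. The strand setting and the handling of multiply mapped or overlapping reads are not given in the sources used here. The study's methods name ENSEMBL v76 as the annotation. Of 55359 identifiers, 52083 were matched to GENCODE M21 (GRCm38) for symbols, exons and coordinates. The other 3276 are all numbered above the highest identifier of GENCODE M21, a later release than ENSEMBL v76, so the release behind the counts is unclear. They held 0.203 to 0.486% of the counts per library and stayed in the fit.

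Counts were fitted over all 4 libraries with edgeR 4.0.16 in R 4.3.3 (filterByExpr with a minimum count of 10, TMM, quasi-likelihood F test, no covariate). Genes were called at a Benjamini-Hochberg adjusted p under 0.1 over all 14637 genes tested, the cutoff of the study. The SE is the log2 fold change divided by the root of F, intervals are 95%, and the floor is 3 counts per library. With 2 against 2 libraries, an exact permutation test cannot go below p = 0.333, so none was used. Replicates of a group differed by more than counting noise (chi-square per degree of freedom 17.1 with EV-RV and 15.7 with IRF4-RV). The fit was tested on simulated counts. Promoter windows came from RefSeq and were read only for letters.

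The members and lists were chosen with earlier results of these data known, so no list was tested as a set. Named were all members, *Irf4*, up to 3 called genes per list in each direction with the largest absolute log2 fold change, and a fixed set of pathway genes, of which 1 is not reported here. *Atrip* and the antisense models were named after their overlap with a member was seen. Alternatives were DESeq2 1.42.0, edgeR with the size factors of DESeq2 or with library sizes alone, 2 other filters on low counts, a stricter threshold, a replicate block, leaving out each library, and longest transcript length. A comparison of protein sequences was not run.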

Additional observations from a re-analysis of the deposited data

How the results depend on the processing

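The number of sensor genes higher was 5 to 7 and none was lower under every alternative. Genes called over the whole table ranged from 3347 to 6394, against 4349, and DESeq2 called 3617. Scaling by library size alone moved the share of higher genes among those called from 53.8 to 37.8% and shifted the middle of all fitted changes to -0.0832. Under that scaling *Mavs* was not called (0.22), the sign turned for *Tbk1* (-0.0139) and *Ripk1* (-0.0813), and 10 companion genes were lower in place of 6. A stricter filter on low counts gave -0.00226 for *Ripk1*, and an FDR of 0.05 left 3 companion genes lower. Leaving out each library gave 0.26 to 0.33 for *Mavs*, -0.0787 to 0.0858 for *Ripk1* and 3 to 6 companion genes lower. The replicate 1 libraries alone, an alternative chosen after seeing the data and without a test, gave 0.99 for *Ifih1* and 1.53 for *Dhx58*. The longest transcript length gave EV-RV levels per kilobase of 8.40 for *Ddx58*, 2.91 for *Ifih1*, 8.01 for *Dhx58*, 12.3 for *Mavs*, 41.4 for *Tmem173*, 0.158 for *Zbp1*, 15.0 for *Tbk1* and 0.659 for *Ikbke*. For the 32 named companion genes tested, over 10 settings, 286 values kept direction and side of the threshold, 29 lost the call, 1 gained it and 4 changed sign. Where not given above, the cause was not tested.

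The labels number the replicates 1 and 2 in both groups. Deviations from the group means of libraries with the same number correlated at r = 0.26 over 14637 genes, and with only 2 pairs the numbers are not shown to pair the samples. With a replicate block, 6394 genes were called, among them all 4349 called without it. *Cgas* was called with the replicate block (log2 fold change 0.50, edgeR adjusted p 0.0907), as was *Ripk3* (0.21, edgeR adjusted p 0.0792).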
